A study of Mus musculus with 4 samples.

Results

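Runx3-bound regions were examined around 9 genes of the BCL2 family, the proteins that decide whether a mitochondrion releases its death signals. The genes were Bcl2, Bcl2l1, Mcl1, Bax, Bak1, Bcl2l11, Bid, Bbc3 and Pmaip1, of 22367 protein-coding genes in the annotation. A peak was counted for a gene when its centre lay in the gene body or within 100 kb of it, and 68 of the 15121 deposited peaks met this rule. The cells were CD11chiMHCII+CD4+ conventional DC of the spleen, purified by FACS and pooled from approximately 15 mice. Runx3-bound chromatin was precipitated with a home-made polyclonal anti-Runx3 antibody in 2 biological replicates, and fragmented whole cell extract chromatin of the same cell type made up 2 input controls. The labels name no genotype, mutation or treatment, and the study describes these DC as wild type, so there is a single condition. The strain is C57BL/6 on 3 samples and reads C57BL/7 on the second input. The single peak list was called on both Runx3 samples against both inputs together, so no value exists per replicate and no spread between replicates can be given. Expression data of these cells were not analysed here, so the sorted cell type was not checked against its markers and binding was not set beside transcript levels.

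BCL2 family proteins share BCL2 homology domains and act at the outer mitochondrial membrane. The antiapoptotic members Bcl2, Bcl-xL (encoded by Bcl2l1) and Mcl1 hold the effectors Bax and Bak in check, and the BH3-only proteins Bim (Bcl2l11), Bid, Puma (Bbc3) and Noxa (Pmaip1) release the effectors or activate them. Free effectors form pores through which cytochrome c escapes, and caspases follow. Splenic DC are short-lived cells whose lifespan depends on this balance. Runx3 is a RUNX family transcription factor whose preferred DNA word is TGTGGT, with TGCGGT as a common variant.

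The sequences below show peaks that hold the RUNX word and peaks at the 5′ end of a gene that lack it. Other peaks of these genes, some of which also hold the word, are not printed. All come from the mm9 assembly (NCBIM37), run 5′ to 3′ on the strand of the BCL2 family gene named, and carry capitals at 4 RUNX words and their reverse complements. These are TGTGGT, the variant with a central C (TGCGGT), and the forms of both that begin with C (CGTGGT for the first and CGCGGT for the other). ACCACA reads as TGTGGT on the other strand. The first set is of 9 windows of 126 bases centred on the TGTGGT nearest to the peak centre. For each gene they show the highest-scoring TGTGGT peak among those nearest to that gene, and every TGTGGT peak in the upper quartile of scores. No peak of Bax or Bak1 met either rule. Pmaip1 had a peak that met both, with a score of 24.4, but no sequence is printed for Pmaip1. The windows are chr1:108412268-108412393 (minus strand, intergenic), chr2:152651604-152651729 (minus strand, intron 2 of Bcl2l1), chr3:95456302-95456427 and chr3:95511549-95511674 (plus strand, both intergenic), chr2:128029836-128029961 (plus strand, within the noncoding genes Gm14005 and Gm14009), chr6:120852127-120852252 (minus strand, intron 1 of Bid), chr6:120905363-120905488 (minus strand, in Mical3), chr7:16836231-16836356 (plus strand, in C5ar1) and chr7:16898525-16898650 (plus strand, intron 2 of Bbc3).
Bcl2 downstream: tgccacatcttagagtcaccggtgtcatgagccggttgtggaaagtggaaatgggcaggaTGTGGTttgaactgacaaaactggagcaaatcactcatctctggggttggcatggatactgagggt
Bcl2l1 body: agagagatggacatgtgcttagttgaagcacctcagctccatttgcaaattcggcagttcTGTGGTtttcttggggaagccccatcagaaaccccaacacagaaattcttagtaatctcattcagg
Mcl1 upstream: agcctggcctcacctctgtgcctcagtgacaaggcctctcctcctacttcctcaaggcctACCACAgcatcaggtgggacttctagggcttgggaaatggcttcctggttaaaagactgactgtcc
Mcl1 downstream: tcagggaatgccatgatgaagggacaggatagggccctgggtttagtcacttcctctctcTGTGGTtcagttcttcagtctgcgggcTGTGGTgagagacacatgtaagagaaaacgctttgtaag
Bcl2l11 downstream: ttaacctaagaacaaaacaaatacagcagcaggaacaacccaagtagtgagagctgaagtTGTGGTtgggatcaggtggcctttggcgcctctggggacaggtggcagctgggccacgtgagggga
Bid body: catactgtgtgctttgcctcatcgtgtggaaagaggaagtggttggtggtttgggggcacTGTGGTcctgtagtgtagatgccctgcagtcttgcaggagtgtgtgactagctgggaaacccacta
Bid upstream: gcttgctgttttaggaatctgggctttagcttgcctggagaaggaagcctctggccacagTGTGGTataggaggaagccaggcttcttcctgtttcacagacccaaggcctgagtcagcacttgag
Bbc3 upstream: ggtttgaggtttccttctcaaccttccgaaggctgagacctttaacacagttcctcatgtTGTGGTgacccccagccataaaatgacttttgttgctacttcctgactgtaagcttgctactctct
Bbc3 body: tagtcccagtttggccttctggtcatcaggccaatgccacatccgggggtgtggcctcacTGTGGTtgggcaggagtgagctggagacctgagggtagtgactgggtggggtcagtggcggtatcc

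The second set is of the 4 peaks at the 5′ end of a gene, cut to the peak's bases upstream of the outermost transcription start site (TSS), at most 250 of them. They are chr2:152657465-152657580 (minus strand), chr3:95462393-95462642 (plus strand), chr7:52722269-52722391 (minus strand) and chr2:127951524-127951773 (plus strand). None of the 4 holds TGTGGT. The Bcl2l11 promoter holds 1 CGCGGT and 1 TGCGGT, the latter as ACCGCA, and the Mcl1 promoter holds 1 CGCGGT, as ACCGCG. The stretches from Bcl2l1 and Bax hold none of the 4 words.
Bcl2l1 promoter: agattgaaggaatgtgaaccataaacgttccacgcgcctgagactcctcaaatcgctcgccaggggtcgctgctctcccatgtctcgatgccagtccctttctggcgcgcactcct
Mcl1 promoter: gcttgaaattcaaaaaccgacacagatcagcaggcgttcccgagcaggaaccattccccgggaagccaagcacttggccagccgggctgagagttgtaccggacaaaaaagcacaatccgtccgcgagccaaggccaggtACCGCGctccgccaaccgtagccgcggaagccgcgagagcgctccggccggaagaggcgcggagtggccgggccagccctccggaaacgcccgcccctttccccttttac
Bax promoter: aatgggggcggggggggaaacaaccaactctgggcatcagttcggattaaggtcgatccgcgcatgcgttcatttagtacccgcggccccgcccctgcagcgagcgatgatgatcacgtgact
Bcl2l11 promoter: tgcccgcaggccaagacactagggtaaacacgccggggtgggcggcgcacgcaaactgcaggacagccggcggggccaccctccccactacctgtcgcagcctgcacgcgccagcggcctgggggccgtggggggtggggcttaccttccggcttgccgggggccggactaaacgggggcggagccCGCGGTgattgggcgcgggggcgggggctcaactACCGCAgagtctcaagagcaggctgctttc

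Every one of the 9 genes had at least 1 Runx3 peak in its window, where 72.1% of all protein-coding genes did. The number of peaks ran from 5 at Bcl2l1 and Bcl2l11 to 14 at Mcl1, with a median of 7, against a median of 2 over all protein-coding genes. All 9 had 5 or more peaks, as did 27.4% of protein-coding genes. Gene bodies held 10 of the 68 peaks, in 5 of the 9 genes, and 23.2% of protein-coding genes had a peak in the body. A further 28 lay upstream and 30 downstream. A window around a gene also takes in its neighbours, and 41 of the 68 peaks were nearest to the TSS of another protein-coding gene. The remaining 27 were nearest to a member, and 8 of the 9 genes had at least 1 of these, where 36.5% of all protein-coding genes did. Peak density was 3.18 per 100 kb over the 9 windows and 0.57 per 100 kb over the genome, regions far from genes included. The same windows around all protein-coding genes had a median of 0.943 per 100 kb. By this density the 9 genes ran from percentile 66.7 of protein-coding genes at Bcl2 to 99.3 at Mcl1. How far the gene richness of the windows bears on this was not tested.

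**Figure D1:**
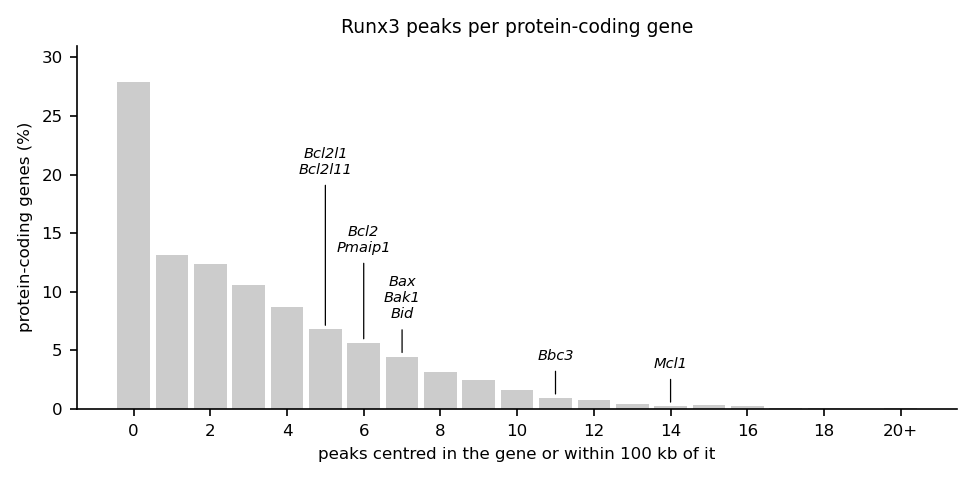
Bars give the percentage of protein-coding genes (y axis) with each number of Runx3 peaks centred in the gene or within 100 kb of it (x axis), and labels mark the 9 BCL2 family genes. All 9 sit at 5 peaks or more, with Bbc3 at 11 and Mcl1 at 14.

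The peak score is the number MACS2 wrote for each peak, in a unit not given in the sources used here, and a higher score marks a stronger call. Over the 68 peaks the median score was 12.0, beside 12.1 for the whole list. Scores at or above the list's upper quartile of 23.2 were held by 17 of the 68 (25%, Wilson 95% interval 16.2 to 36.4, counting error only), beside 25.4% of all peaks. The 9 genes thus had more peaks than the median gene, with a median score and an upper-quartile share close to the list's. Of the 17 high-scoring peaks, 6 were nearest to the family gene itself, namely 2 at Mcl1, 1 at Bid and 3 at Pmaip1, and 11 were nearest to a neighbour. An upper-quartile peak lay in the window of 7 of the 9 genes, all but Bcl2 and Bcl2l11, where 43.2% of protein-coding genes had one.

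**Figure D2:**
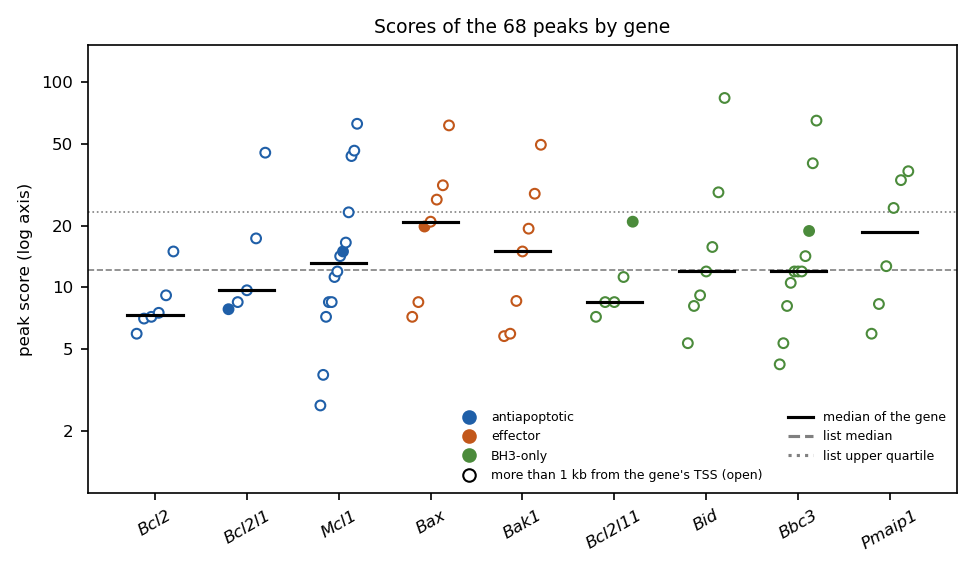
Each point is 1 Runx3 peak, plotted by its MACS2 score (unit not stated, log axis) for each of the 9 genes. Filled points lie within 1 kb of the gene's TSS, bars mark each gene's median, and dashed and dotted lines mark the list's median and upper quartile. Scores run from 2.67 to 83.4, and the highest score of the 9 genes is at Bid.

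At the TSS, defined as within 1 kb of the start of any transcript of the gene, 5 of the 9 genes carried a peak (Bcl2l1, Mcl1, Bax, Bcl2l11 and Bbc3), where 24.9% of protein-coding genes did. Their scores were 7.84 at Bcl2l1, 15.0 at Mcl1, 18.8 at Bbc3, 19.8 at Bax and 20.9 at Bcl2l11. Thus 4 of the 5 lay at or above the list median of 12.1, a level that a TSS peak reached at 13.5% of protein-coding genes. None reached the upper quartile, a level that a TSS peak reached at 6.66% of protein-coding genes. The Bbc3 peak counts only through an internal start, since it lay 3560 bp downstream of the main 5′ end. The antiapoptotic, effector and BH3-only classes each had genes with and without a TSS peak.

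**Figure D3:**
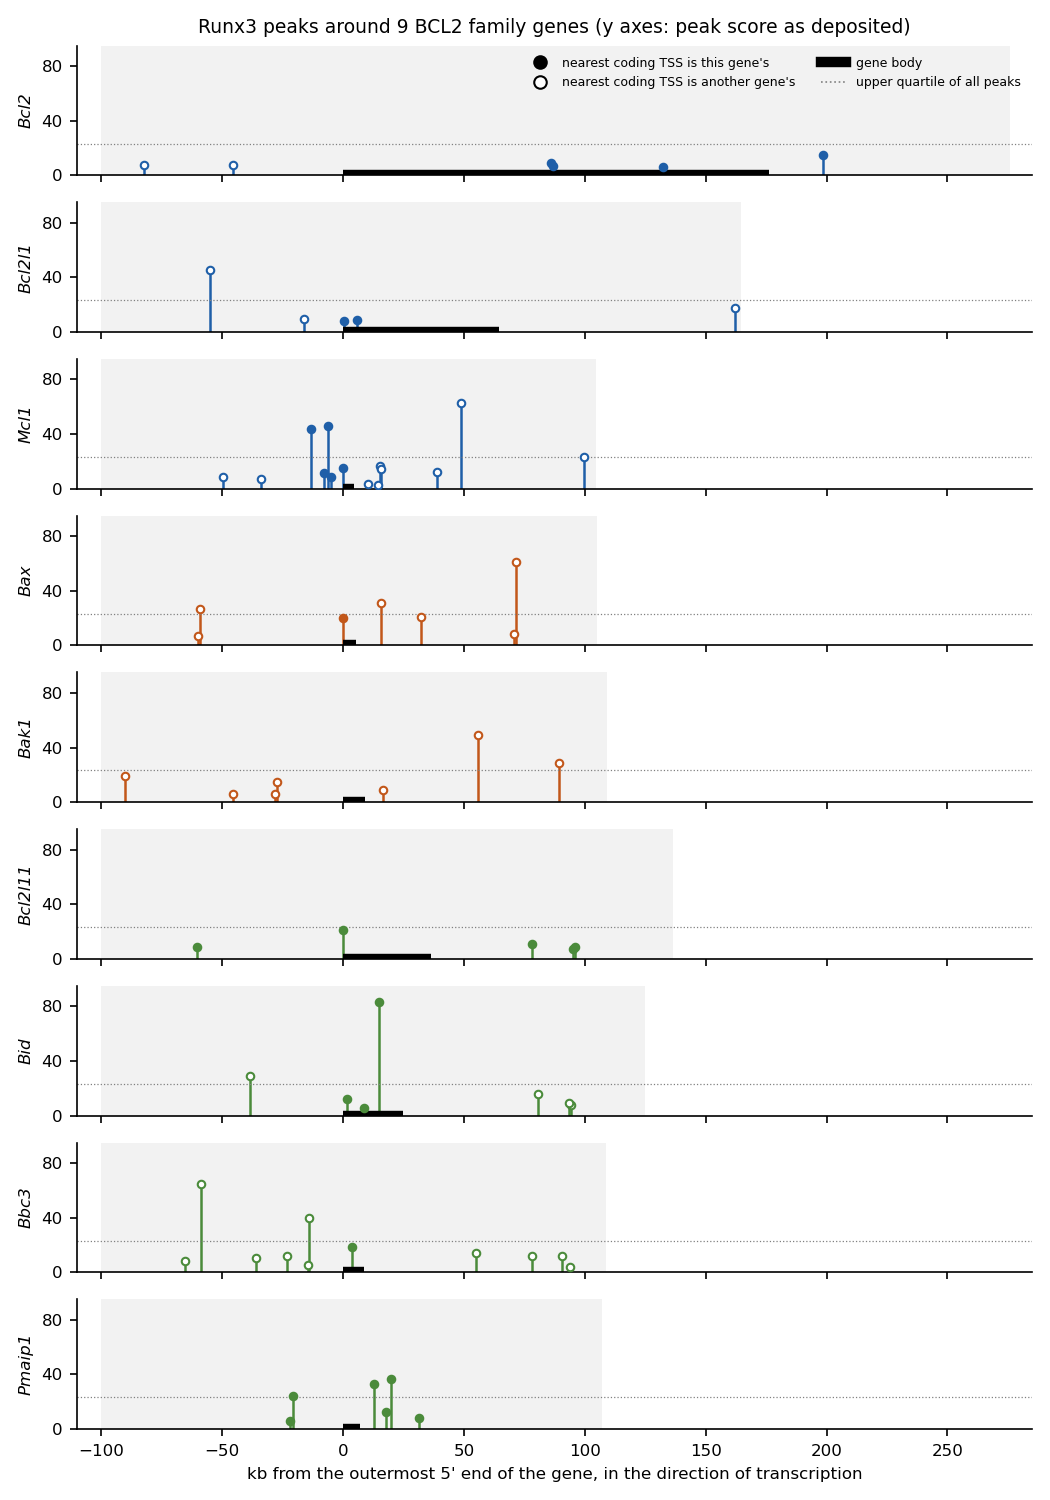
Each row is 1 gene, with Runx3 peaks placed by distance from the outermost 5′ end (x axis, kb, transcription to the right) and by MACS2 score (y axis). Black bars are gene bodies, grey shading is the 100 kb window and dotted lines mark the list's upper quartile. Filled markers are peaks whose nearest protein-coding TSS is that gene's, which are 6 of 6 peaks at Pmaip1, 5 of 5 at Bcl2l11 and 0 of 7 at Bak1.

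Among the antiapoptotic genes, Mcl1 had the most peaks and Bcl2 the lowest median score. Mcl1 encodes a short-lived guardian protein that many haematopoietic cells need. Its 14 peaks (7 upstream, 7 downstream, none in the gene body) were as many as or more than those of 99.2% of protein-coding genes, at 6.85 per 100 kb. Scores spanned 2.67 to 62.5, median 13.1.

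A peak of 15.0 at chromosome 3, 95462263 to 95462790, was centred 116 bp upstream of the Mcl1 TSS. A run of 4 peaks lay farther upstream, with scores of 8.49 at 4989 bp, 46.2 at 6294 bp, 11.2 at 7804 bp and 43.5 at 13258 bp. All 4 were intergenic and nearest to Mcl1 among protein-coding genes, and the upstream sequence printed for Mcl1 is from the 46.2 peak. On the other side the highest-scoring peak of the window, 62.5, stood 48906 bp downstream of the Mcl1 TSS, at 95511278 to 95511819. The nearest protein-coding TSS to it was 19709 bp away and belonged to Adamtsl4, and it holds a pair of TGTGGT words. Of the 14 peaks, 5 were nearest to Mcl1.

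Bcl2l1 encodes Bcl-xL, which many cell types use for survival. It had 5 peaks with scores from 7.84 to 45.2 and a median of 9.69. The TSS peak, at chromosome 2, 152656848 to 152657580, scored 7.84 and had its centre in intron 1, 250 bp inside the main 5′ end. A second peak in the gene, in intron 2 and 5796 bp from the 5′ end, scored 8.49 and holds TGTGGT at 2 places. The remaining 3 were nearest to neighbours. The 45.2 peak lay 55109 bp upstream of Bcl2l1 in intron 12 of Tpx2, a spindle assembly factor, a 9.69 peak lay 158 bp from the Tpx2 TSS, and a 17.3 peak lay 23 bp from the TSS of H13, a signal peptide peptidase.

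Bcl2, the founding member of the family and a long gene of 176 kb, had 6 peaks and none within 45.4 kb of its TSS. Their scores spanned 5.96 to 15.0, median 7.37, and none reached the upper quartile. Intron 1 held 3 of them, scoring 5.96, 7.06 and 9.16. The 15.0 peak lay 22249 bp beyond the 3′ end of the gene. Both upstream peaks sat at the start sites of neighbours, 53 bp from the TSS of Kdsr (score 7.20), a ceramide synthesis enzyme, and 6 bp from that of Vps4b (7.53), an ATPase of membrane sorting. A peak of 38.1 stood at 101 kb, just beyond the limit. At the same edge of the rule, Mcl1's last peak (23.2) lay 95.4 kb out and one of 61.8 lay 102 kb from Bbc3, outside it.

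The effectors Bax and Bak1 are functionally redundant pore formers, and their windows had 7 peaks each. Only 1 of these 14 peaks was nearest to an effector gene, and 10 of the 14 (71.4%) lay within 1 kb of some protein-coding TSS, beside 36.3% of all peaks. That 1 peak was at the Bax TSS, at chromosome 7, 52721872 to 52722391, centred 13 bp from the start in exon 1 with a score of 19.8. Bax lies in a gene-dense region in which 15 other protein-coding genes start within the window. Its scores spanned 7.20 to 61.3, median 20.9, and the higher ones belonged to neighbours. The 61.3 peak was 108 bp from the TSS of Snrnp70, a component of the U1 splicing particle. The 31.4 peak lay 422 bp from the TSS of Gys1, the muscle glycogen synthase, and the 26.7 peak 18 bp from that of Ppp1r15a, a phosphatase subunit of the stress response.

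None of the 7 peaks in the Bak1 window was nearest to Bak1, the sole gene of the 9 without one. The closest lay 10.5 kb from a Bak1 TSS. Scores spanned 5.80 to 49.4, median 15.0. The highest, 49.4, was 23 bp from the TSS of Zbtb9, a zinc finger gene, and the 28.6 peak was 129 bp from that of Cuta. Itpr3, which encodes a calcium channel of the endoplasmic reticulum, was nearest to 3 of the 7.

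The BH3-only genes held 29 peaks, with a median score of 12.0, and 15 of them were nearest to the gene itself. Bcl2l11 encodes Bim, a main trigger of death in leukocytes. It had 5 peaks, all nearest to Bcl2l11, and no other protein-coding gene starts in its window. The highest score, 20.9, was at the promoter, at chromosome 2, 127951402 to 127952097, centred 24 bp upstream of the TSS. This peak had no TGTGGT but 3 of the other RUNX words, and TGTTTAC, a forkhead word, at 2 places. The other 4 were weaker, with 8.49 at 60328 bp upstream in intron 14 of Acoxl and 11.2, 7.20 and 8.49 between 78085 and 95814 bp downstream of the TSS. Those 3 downstream peaks lay inside the annotated span of Gm14005, the long noncoding RNA Morrbid, known to restrain Bcl2l11 in short-lived myeloid cells. They fell outside its longest annotated transcript, counted in exon bases, and 207 to 225 kb from the nearest Gm14005 TSS. Gm14005 is read from the opposite strand, and its near end is 33.4 kb beyond the end of Bcl2l11. Its body held 5 peaks in all, and the other two scored 5.86 and 3.69. A further peak of 13.4, at 128254838 to 128255863, lay 266 bp from the Gm14005 TSS and 304 kb from that of Bcl2l11, outside the 100 kb rule.

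Bid links death receptors to mitochondria once caspase 8 has cut it. It had 7 peaks, with scores spanning 5.36 to 83.4, median 12.0. The 83.4 peak, the highest of the 68 and at percentile 98.0 of the list, lay in intron 1 at chromosome 6, 120851855 to 120852422. It was 14732 bp downstream of the main 5′ end and 4553 bp from the start of a shorter Bid transcript. It holds 1 TGTGGT, shown in the printed Bid body window, and 1 AP-1 word (TGANTCA). Intron 1 held a pair of weaker peaks, scoring 5.36 and 12.0, the latter 1692 bp from the main 5′ end and 1637 bp from the nearest Bid TSS. Upstream, a peak of 29.0 lay 38543 bp away in intron 11 of Mical3, with TGTGGT at 2 places. The last 3 were near Atp6v1e1 (8.13 and 9.16) and at Bcl2l13 (15.7), another family member whose 7 window peaks were all in the Bid window too.

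Bbc3 encodes Puma, a p53 target that binds all antiapoptotic members. Its 11 peaks were as many as or more than those of 97.7% of protein-coding genes, but 1 of them was nearest to Bbc3. That peak scored 18.8, lay in intron 2 at chromosome 7, 16898314 to 16898735, and was 341 bp upstream of the start of a noncoding Bbc3 transcript. It was the sole TSS peak of the 5 to hold TGTGGT. The window's highest score, 64.7, was 58714 bp upstream in intron 1 of C5ar1, a receptor for the complement fragment C5a, and its nearest TSS was that of Gpr77, another C5a receptor, at 6748 bp. A 40.2 peak lay 14018 bp upstream of Bbc3 and 8803 bp from the TSS of Ccdc9. The other scores ran from 4.23 to 14.2.

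Pmaip1 encodes Noxa, a p53 target that binds Mcl1. It had 6 peaks, all nearest to Pmaip1, with no other protein-coding gene starting in the window. None was in the gene or at its TSS, and the closest was 12.6 kb from the TSS and 5652 bp beyond the 3′ end. Scores were 5.96 at 21803 bp and 24.4 at 20940 bp upstream, then 33.2 at 12598 bp, 12.7 at 17843 bp, 36.7 at 19701 bp and 8.31 at 31223 bp downstream of the 5′ end. The 3 in the upper quartile were thus on both sides of the gene, and 1 of them, the 36.7 peak, holds TGANTCA at 2 places. The median of 18.5 was second to that of Bax among the 9 genes.

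The RUNX word was less frequent in these peaks than in the list. TGTGGT on either strand was in 26 of the 68 (38.2%, Wilson 95% interval 27.6 to 50.1) and in 54.0% of all peaks. Among the 27 of them nearest to a family gene's own TSS it was in 48.1%, and the rest were nearest to neighbours. In windows of the same width 10 kb downstream of the peaks, taken as control sequence, the word was in 24 of 67 (35.8%), beside 30.9% of such windows of the whole list. Any of the 4 RUNX words defined above was in 50 of the 68 (73.5%), beside 76.6% of all peaks. These counts describe letters and do not show which words were bound.

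The share was lower near start sites than away from them. Within 1 kb of a protein-coding TSS, TGTGGT was in 6 of 27 family peaks (22.2%, interval 10.6 to 40.8), beside 33.6% of all such peaks. Farther away it was in 20 of 41 (48.8%, 34.3 to 63.5), beside 65.7%. In both places the share in these peaks, those nearest to neighbours included, was below the list's. The list's value lay inside the interval near start sites and just above it farther away. With the 4 words the near peaks had 24 of 27 (88.9%, 71.9 to 96.1), beside 75.5%. The far peaks had 26 of 41 (63.4%, 48.1 to 76.4), beside 77.2%. These intervals cover counting error only, and no difference from the list was tested. GC content was 60.5% in the near and 47.7% in the far family peaks (medians), and its part in these shares was not tested.

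The family peaks with the word did not have the higher median score, as those of the whole list did. The median score was 11.2 for the 26 family peaks that hold TGTGGT and 12.0 for the 42 that do not, a difference not tested. The list had 14.2 and 10.5. In the upper quartile, 6 of 17 family peaks (35.3%) held TGTGGT, beside 65.0% of all upper-quartile peaks. Of these 17, 11 were nearest to a neighbouring gene, so the share is not that of the family genes alone. The 3 family peaks with the highest scores, in the windows of Bid, Bbc3 and Mcl1, each held TGTGGT. Of these, only the Bid peak was nearest to its family gene.

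Words of other factors are given beside their share of the list. GGAAGT, an ETS word, was in 57.4% (list 52.8%), TGANTCA in 14.7% (13.2%) and TGTTTAC in 8.82% (5.04%). The IRF element, GAAA repeated after any 2 bases, was in 5 of the 68 (7.35%, list 6.48%). The ETS-IRF composite, GGAA and GAAA parted by any 2 bases, was in 1 (1.47%, list 7.81%), and the NF-κB element was in 1 (list 1.72%). TGACGT, tied to the DC factor zDC and also the core of cAMP response elements, was in 11 (16.2%), beside 11.0%. Within 1 kb of a start site it was in 9 of 27 (33.3%, interval 18.6 to 52.2), beside 17.1%. The interval covers counting error only, this share is among several compared, and the difference was not tested. All 9 of these TGACGT peaks were nearest to the TSS of a neighbour, 1 of them Bcl2l13. None was nearest to that of any of the 9 genes whose windows were searched. Farther away it was in 2 of 41 (4.88%), beside 7.52%.

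**Figure D4:**
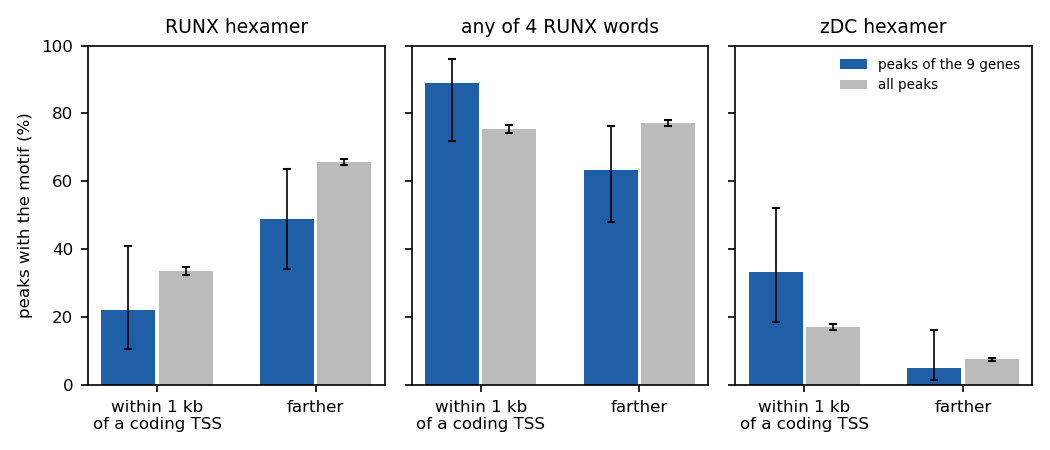
Bars give the percentage of peaks (y axis) that hold TGTGGT (left), any of the 4 RUNX words (middle) or TGACGT (right, zDC hexamer), within 1 kb of a protein-coding TSS or farther away, for the 68 family peaks (blue) and all 15121 peaks (grey), with Wilson 95% intervals for counting error. TGTGGT stands at 22.2% and 48.8% in the family against 33.6% and 65.7% in the list.

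Of the other genes of the cell death pathway, 51 were examined in 5 groups. Of these, 48 (94.1%) had a peak in their window and 20 (39.2%) had one within 1 kb of a TSS, beside the 72.1% and 24.9% of all protein-coding genes. Their median was 3 peaks per gene, where the 9 family genes above had 7. No peak was called in the windows of Bcl2a1a, Xiap and Fadd. Reads were aligned uniquely, and Bcl2a1a and Bcl2a1d are near-identical copies, so their peaks or lack of them are uncertain.

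Among the remaining BCL2 family genes, 5 of 17 had a TSS peak, with 51.5 at Bcl2l12, 26.7 at Bnip3 (a mitophagy receptor), 15.7 at Bcl2l13 and 8.49 at Bcl2a1d. The group of mitochondrial execution genes, caspases and caspase inhibitors had 7 of 15. Birc3, encoding the ubiquitin ligase cIAP2 that restrains cell death, had the highest TSS score of the 51 genes at 90.7, Birc5 (survivin) had 59.1, and Cycs (cytochrome c) and Birc6 had 19.8 each. The death receptor arm had 2 of 8, Tradd at 17.3 and Casp8 at 8.49. Upstream regulators had 3 of 6, with 23.4 at Mdm2, 20.6 at Trp53 and 17.3 at Ddit3 (CHOP). The mitochondrial partners had 3 of 5, with 41.1 at Vdac2, a channel that holds Bak, 10.5 at Ppif and 5.36 at Mtch2, the receptor of truncated Bid. The TSS scores of these 20 genes spanned 5.36 to 90.7, median 17.3, and those of the 5 family genes from 7.84 to 20.9. The peaks given for Bcl2l12, Tradd and Trp53 count only through internal starts inside the gene. By the outermost 5′ end alone, 18 of the 51 genes had a TSS peak, beside 22.6% of protein-coding genes.

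**Figure D5:**
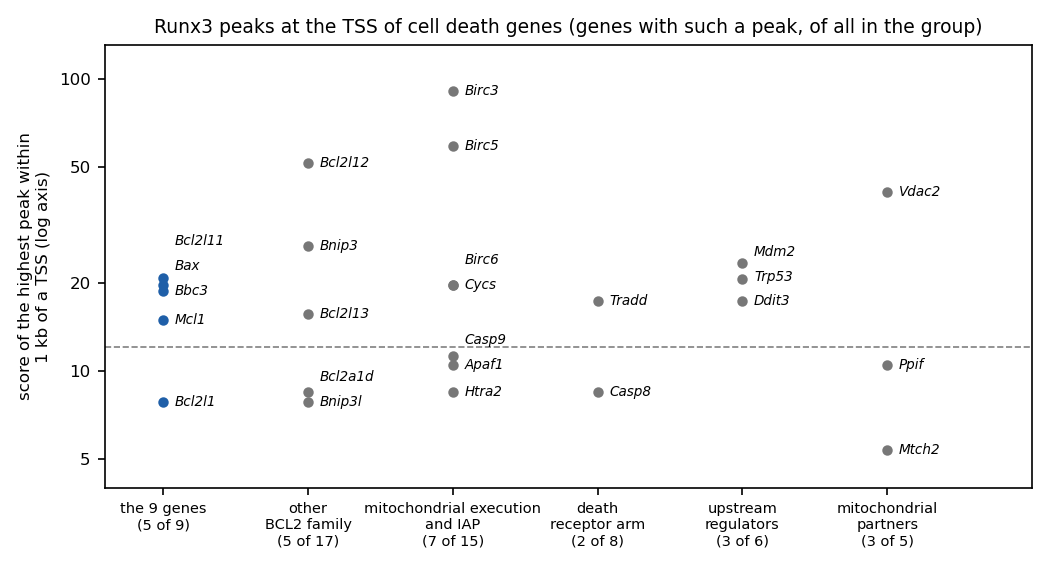
Points give the MACS2 score (unit not stated, log axis) of the highest peak within 1 kb of a TSS, for the 9 BCL2 family genes (blue) and the 5 groups of other cell death genes (grey), and the dashed line is the list median. Birc3 is highest at 90.7, the 5 family genes with a TSS peak lie between 7.84 and 20.9, and Cycs and Birc6 share a point at 19.8.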

How the data were processed

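Deposited data were 1 BED list of 15121 Runx3 peaks of mouse splenic CD4+ DC. Per the submitters' processing notes and the study's methods, CASAVA 1.8, Bowtie and MACS2 were used on mm9, with 50 bp reads aligned uniquely and both Runx3 samples called together against both inputs. Other versions, the threshold and duplicate handling are not given in the sources used here. The score in the list is the value deposited by the authors from MACS2, without a stated unit, and was used only to rank peaks. Depth per library was not analysed here, and a missing peak means only that none was called.

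Peaks were placed by their centre on GENCODE M1 genes, counted from 1. Introns follow the longest protein-coding transcript. Words were searched on both strands of NCBIM37 sequence. Background shares used all 22367 protein-coding genes or all peaks. With no value per replicate, no test was run. The interval on a share is Wilson's at 95%, for counting error only. The family genes, the other cell death genes and the alternatives were chosen with earlier results of these data known. Named were all 9 family genes, Gm14005, up to 4 other cell death genes per group by TSS score, and neighbours nearest to upper-quartile or highest peaks. Other neighbours (Kdsr, Vps4b, H13, Itpr3, Acoxl, C5ar1, Gm14009 and Atp6v1e1) were named after their values were seen, to place a peak. Alternatives were score filters, other distances, TSS sets and assignments, joined peaks, and other words and windows. Counting was tested on simulated data. Python 3.11.15, pandas 2.3.3, numpy 2.4.6, scipy 1.17.1, pysam 0.24.0, samtools 1.23.1 and matplotlib 3.10.9 were used.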

Additional observations from a re-analysis of the deposited data

How the results depend on the processing

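Of 41 alternative values computed for 5 results, 31 stayed within 1.5 times the count or within the interval or spread of the value, and 10 did not. The 31 include the control windows 10 kb downstream (35.8% with TGTGGT), which do not measure the peaks' own share. The 68 peaks became 31 at or above the list's median score, 17 in the upper quartile, 18 within 10 kb of the gene body, and 27 where the nearest protein-coding TSS had to be the family gene's. Their median score of 12.0 became 24.4 and 40.1 under the score limits, which remove low scores by construction. The share with TGTGGT, 38.2%, became 73.5% with any of the 4 words. Family genes with a TSS peak fell from 5 to 0 in the upper quartile, and the other cell death genes with one from 20 to 12 at the median and 6 in the upper quartile. The share of all protein-coding genes with a TSS peak fell from 24.9% to 13.5% and 6.66% under the same 2 limits. The family genes' TSS count lost Bbc3 when only the outermost 5′ end or protein-coding transcripts counted, leaving 4. It gained Bid within 5 kb, giving 6. Of the other cell death genes, 18 had a TSS peak by the outermost 5′ end, 20 by protein-coding transcripts and 25 within 5 kb. Of all protein-coding genes, 22.6% had a TSS peak by the outermost 5′ end, 24.2% by protein-coding transcripts and 31.1% within 5 kb. No paired analysis was possible because the peak list pools both replicates, and for the same reason no replicate could be left out.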
